A study of Rattus norvegicus with 42 samples.

Results

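Transcription starts in the extensor digitorum longus (EDL), a fast hindlimb muscle that lifts the toes, were compared between rats 3 days after a return to normal loading and rats that had never been unloaded. All deposited peaks of transcription starts outside the mitochondrial chromosome were taken, 9969 of 9971, and 9341 of them held enough tags to be tested. The R3 group is 3 Wistar rats (U4, U5 and U16) that hung by the tail for 7 days with their hindlimbs off the ground and then moved freely for 3 days. The control group is 3 active rats of the same strain (U6, U7 and U8), and no library pools animals. These 6 libraries belong to 42, a soleus and an EDL library from each of 21 rats in 7 phases. Beside control and R3 these are D1, D3 and D7, named for the days spent unloaded, and R1 and R7, named for the days of free movement that followed a week of unloading. One-sided muscle samples of whole tissue were used, so a level can be lower because fewer cells of a type were present or because each held less RNA, and these cannot be told apart.

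CAGE reads the capped 5′ end of an RNA, so a pile of tags is taken to mark the base at which RNA polymerase II began. A cluster of such bases is a TSS peak, and one gene can have several, including peaks inside its body and on the opposite strand. Whether each peak inside a gene body is a separate start was not tested. Fast muscles such as EDL rely on the fast myosin heavy chains, of which Myh4 encodes the type IIb chain, while soleus is a slow postural muscle. Unloading removes the weight that postural muscles carry, and reloading restores it.

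Most peaks of EDL had similar levels at R3 and in control. On the TMM scaling, the median log2 fold change (R3 minus control, edgeR) was -0.01 and 87.7% of the tested peaks had a log2 fold change under 1 in size. This scaling takes most peaks as unchanged, so a median near 0 is set by it. With tag totals of whole libraries as library sizes the median was 0.13. The edgeR quasi-likelihood test with Benjamini-Hochberg adjustment called 0 peaks (0% of 9341 tested) at an adjusted p under 0.05 and a difference of more than 2.38-fold in either direction, with a smallest adjusted p of 0.176. At an unadjusted p under 0.05 there were 1314 peaks (14.1%), 842 of them higher at R3 and 472 lower. DESeq2, the tool the study used, called 90 peaks (0.963%), 81 higher (0.867%) and 9 lower (0.0963%). Fitted to the 6 libraries of this comparison alone, DESeq2 called 184, of which 78 were higher and 106 lower, so the balance of directions depended on which libraries were fitted. The 3 R3 libraries lay wholly above or wholly below the 3 controls for 2020 peaks (21.6%), 962 above and 1058 below.

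**Figure D1:**
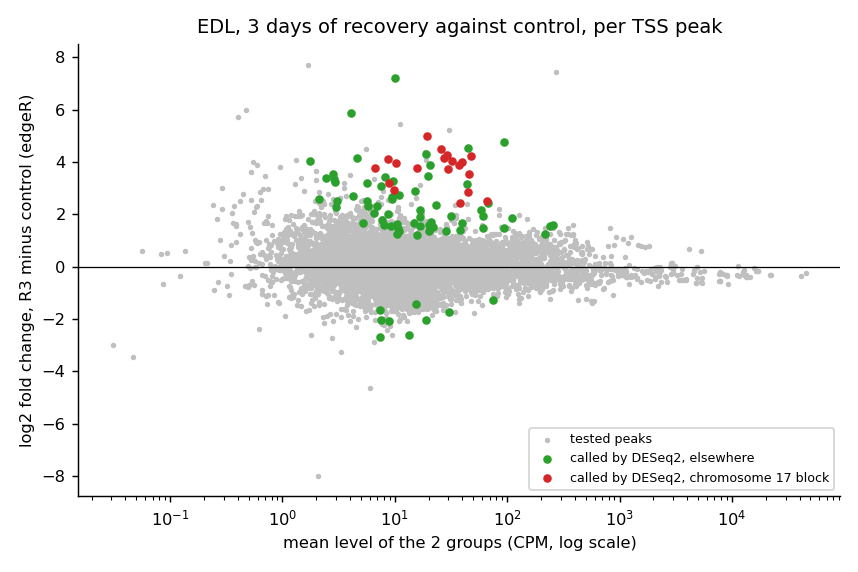
Each point is 1 of 9341 tested peaks, with the mean level of R3 and control in CPM (TMM-scaled counts of peak tags, log axis) on the x axis and the edgeR log2 fold change on the y axis. Green and red points are the 90 peaks that DESeq2 called, red those of a block on chromosome 17; 81 lie above 0 and 9 below.

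One R3 library stood apart from the rest. Over log2 levels, U4 correlated with the controls at a mean r of 0.860, whereas U5 and U16 had 0.945 and 0.942, and its nearest library was an R7 animal, U12 (r = 0.924). In 165 peaks U4 was more than 2 times as high as each of the other 20 EDL libraries (1 CPM added), against 1 such peak in U5, 3 in U16 and 89 in U25 of D1, the next highest. The 6 libraries held 4025533 to 12195006 tags, and 63.8% to 87.7% of these fell in peaks (87.3% in U4). U4 had tags at 497820 positions of the genome, fewer than the 929738 to 1493139 of the other 5 libraries. Among EDL libraries of other phases, U24, U20, U25 and U12 had fewer still, from 233176 to 351214 positions. These held 1778712 to 2814982 tags. All 3 controls were sequenced in lane 1, U5 and U16 in lane 5 and U4 in lane 6, and no EDL library of another phase was in lane 1, so lane and group cannot be told apart in EDL. The muscle labels of the R3 libraries were checked on 2 lists of 100 peaks, chosen for their difference between soleus and EDL controls, so that control values are set by the choice. Over the soleus list the R3 libraries summed to 654 to 766 CPM, beside 136 to 649 CPM in EDL controls and 22135 to 32255 CPM in soleus controls. Over the EDL list U4 summed to 6926 CPM, U5 to 14079 and U16 to 13660 CPM, beside 14577 to 18481 CPM in EDL controls and 20.3 to 38.8 CPM in soleus controls. EDL libraries of the other phases ran from 6332 (D7, U3) to 20698 CPM (D1, U25) over that list, so the sum of U4 lay within their range.

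How far the number of calls rested on single animals was measured by leaving each out. Without U4, edgeR called 0 peaks, with 421 of 9459 tested at an unadjusted p under 0.05 (194 higher and 227 lower), and DESeq2 called 2. Without U5, edgeR called 90 (84 higher and 6 lower) and DESeq2 352, and without U16 they called 0 and 170. Leaving out a control took DESeq2 to 5 (U6), 17 (U7) or 4 (U8), and edgeR stayed at 0. With sequencing lane as a term in a fit over all 42 libraries edgeR called 0, and 4 without that term. The median standard error of the log2 change was 0.830 with the term and 0.386 without it. The loss of calls therefore cannot be read as an effect of lane. With whole-library tag totals as library sizes, the median log2 change of all peaks was 0.13, and the peaks at an unadjusted p under 0.05 split into 989 higher and 196 lower.

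The largest group of higher peaks lay together on chromosome 17. Of the 81 higher peaks that DESeq2 called, 19 fell within 1218 kb, from 43616154 to 44834409 of chromosome 17 (Rnor_6.0), 10 on the plus and 9 on the minus strand. On the scaling of all 42 libraries, used for every summed level of the block and not for its single peaks, the sum of these 19 peaks was 90.9, 102 and 98.5 CPM in controls U6, U7 and U8, 90.6 in U5, 213 in U16 and 2946 in U4. Thus 1 of 3 R3 animals was far above every control, 1 was at about 2 times the highest of them and 1 was level with the lowest. In U4 each of these peaks stood at 6.67 to 42.9 times the mean of U5 and U16 (median 25.9, with 0.5 CPM added). The 19 peaks were called for being higher at R3 than in these controls, so such differences are partly set by that choice.

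Across the time course the block was also high in some other libraries. In the other EDL phases the sum ran from 81.4 CPM (D3, U11) to 345 CPM (D1, U24). In soleus of the same rats it was 1074 in U4, 467 in U5 and 1221 CPM in U16, above the soleus controls at 77.6, 142 and 290 CPM. Soleus R7 animals had 2206 (U12), 885 (U13) and 108 CPM (U19). All 19 peaks were higher at R3 in soleus too, with a median log2 change of 2.58 beside 3.92 in EDL, but none reached an adjusted p under 0.05 in soleus by edgeR. No peak of the 19 had an unadjusted p under 0.05 for the difference between the muscles, where 3.41% of all tested peaks did. The remaining 20 tested peaks of the interval had a summed 2397 CPM in U4, 842 in U5, 950 in U16 and 512 to 583 CPM in controls. Of these 20, 3 to which DESeq2 gave no adjusted p stood in U4 at 27.8, 34.5 and 42.7 times the mean of U5 and U16, and the median ratio of the 20 was 2.92.

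**Figure D2:**
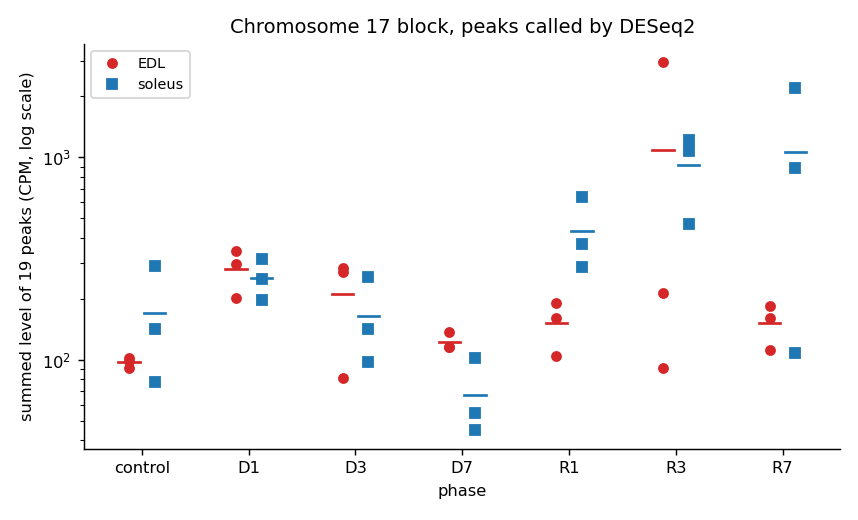
Summed CPM (log axis, scaling of all 42 libraries) of the 19 called peaks of the chromosome 17 block in each of the 42 libraries, by phase, with EDL as circles, soleus as squares and short lines for group means. In EDL at R3 one animal stands at 2946 CPM and the other 2 at 90.6 and 213 CPM, while all 3 soleus R3 animals lie above their controls.

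Single peaks of the block had steep differences. The peak chr17:44758371-44758608 on the plus strand, which had the smallest adjusted p of all by DESeq2 (0.0047), stood at 3.72, 2.38 and 2.33 CPM in controls and at 146, 4.29 and 7.52 CPM in U4, U5 and U16. The groups did not overlap, yet U5 was above the highest control by less than 1 CPM. On the minus strand chr17:44738300-44738435 had 1.12, 1.59 and 0.933 CPM in controls and 107, 0.805 and 4.90 CPM at R3, so that U5 lay under all controls. Its log2 change was 5.01 ± 1.23 (SE, edgeR), and 1.23 without U4 (unadjusted p = 0.205). In the peak chr17:43807463-43807608 on the minus strand all 3 R3 animals were above all controls, at 260, 28.4 and 48.7 CPM against 17.95, 21.8 and 19.8 CPM. A further one, chr17:43617086-43617243 on the plus strand, had 63.4, 1.34 and 0.654 CPM at R3, which are 262, 5 and 2 tags. Controls had 0.651, 0.396 and 0.233 CPM there, which are 7, 1 and 1 tags. Its log2 change of 5.47 was 1.08 without U4 (edgeR unadjusted p = 0.174). DESeq2 gave this peak neither an unadjusted nor an adjusted p.

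Tags at these starts were concentrated at single bases. In chr17:44738300-44738435, 86.1% of the R3 tags and 80.0% of the 20 control tags began at base 44738382. In chr17:44793803-44793991 the strongest base took 80.2% of R3 tags and 67.6% of control tags. Most R3 tags of both peaks came from U4, which in the latter had 193 CPM beside 3.49 in U5 and 10.5 CPM in U16. The share was lower in chr17:43807463-43807608, at 52.8% of R3 tags and 41.7% of control tags. In chr17:43617086-43617243 the strongest base took 63.2% of R3 tags and 0% of the 9 control tags. The same base was the strongest at R3 and in control in 21 of the 28 peaks named by the rules of this comparison.

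Many of the 62 higher DESeq2 calls outside the block were also highest in U4. Among the R3 animals U4 was the highest in 57 of them. It was above the other 20 EDL libraries in 49 and at least 4 times the mean of U5 and U16 in 25. The peak chr20:3677464-3677614 on the plus strand reached 516 CPM in U4, against 22.8 in U5, 6.21 in U16 and 11.4, 1.59 and 5.13 CPM in controls. On chromosome 2, 3 called peaks lay near each other. The minus-strand peak chr2:198380768-198380887 had 103, 1.34 and 4.25 CPM in U4, U5 and U16 and 2.42, 3.57 and 4.2 CPM in controls, and the plus-strand peak chr2:198390079-198390205 had 108, 0.805 and 5.23 CPM against 1.67, 3.17 and 3.27 CPM. In both, U5 lay below all controls. Summed over the 62 higher calls outside the block, again on the scaling of all 42 libraries, U4 had 6006 CPM, U5 1841, U16 2207 and controls 821 to 967 CPM. D1 to R1 libraries of EDL, which came before R3 in the course, had 1344 to 2880 CPM, and R7 libraries 1305 to 2295 CPM. The 62 peaks were called for being higher at R3 than in these controls. How far the sums of R3 and of other phases lie above control is therefore partly set by that choice.

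Peaks that were higher in all 3 R3 animals were named by a rule. By this rule, which asked for 10 CPM in a group mean, a difference above 2.38-fold and no overlap, 105 peaks qualified as higher, and the 10 with the smallest edgeR p are given here. The first, chr3:12009489-12009652 on the plus strand, had 10.6, 9.51 and 10.5 CPM in controls and 48.1, 24.1 and 18.96 CPM in U4, U5 and U16. Its log2 change was 1.57 ± 0.31 (edgeR adjusted p = 0.176, DESeq2 adjusted p = 0.00524). Leaving out U4, the change was 1.08, with an edgeR unadjusted p of 0.00132. The second, chr20:31857089-31857268 on the minus strand, had 4.28, 3.57 and 3.97 CPM in controls and 12.3, 9.66 and 14.1 CPM at R3, and here U16 and not U4 was highest. Its change of 1.59 ± 0.33 was 1.56 without U4. The third, chr4:170766793-170766966 on the plus strand, had 6.23, 5.15 and 10.03 CPM in controls and 32.4, 13.95 and 21.6 CPM at R3.

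Peaks 4, 5 and 7 of that list are chromosome 17 peaks described above, and 6 and 8 to 10 had smaller spreads. Peak 4, chr17:43617086-43617243, met the level and the 2.38-fold difference of the rule only through U4. The sixth, chr6:53363044-53363064 on the minus strand, spans 21 bases, and 95.4% of its R3 tags began at 1 base. It had 7.26, 10.3 and 8.40 CPM in controls and 43.1, 13.1 and 18.96 CPM at R3. For the eighth, chr4:120413992-120414127 on the minus strand, controls had 19.2, 23.0 and 21.2 CPM, and R3 animals had 83.5, 40.5 and 40.5 CPM. The ninth, chr12:40686356-40686378 on the minus strand, is 23 bases wide and had 10.05, 11.5 and 12.4 CPM in controls and 46.7, 21.2 and 28.8 CPM at R3. The tenth, chr9:29647812-29648093 on the minus strand, had 9.95, 9.11 and 10.5 CPM in controls and 52.3, 21.7 and 21.6 CPM at R3. U4 was the highest R3 library in each of these 4, and U5 and U16 lay above all controls in each, as the rule asked. Of the 10 peaks, 9 were called by DESeq2.

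DESeq2 also called peaks outside that list of 10. Of those given here, the peaks on chromosomes 8 and 12 were below the level set for naming, and those on chromosomes 20 and 1 were above it. The peak chr8:54961207-54961314 on the minus strand had 2.42, 3.57 and 1.63 CPM in controls and 8.95, 6.98 and 7.52 CPM at R3. Its log2 change was 1.66 ± 0.34, and 1.55 without U4 (edgeR unadjusted p = 0.000579). In chr12:11238139-11238387 on the minus strand, controls held 4, 2 and 2 tags and R3 animals 80, 14 and 9 tags, that is 0.372, 0.793 and 0.467 CPM against 19.4, 3.76 and 2.94 CPM. Chosen after their values were seen, chr20:56195288-56195477 on the minus strand had 31.1, 9.51 and 22.6 CPM in controls and 128, 112 and 105 CPM at R3, close to each other. Also chosen in that way, chr1:264059303-264059692 on the plus strand had 8.09, 7.93 and 6.77 CPM in controls and 12.8, 15.8 and 88.9 CPM in U4, U5 and U16. This peak, highest in U16, was 1 of the 2 peaks that DESeq2 still called without U4.

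**Figure D3:**
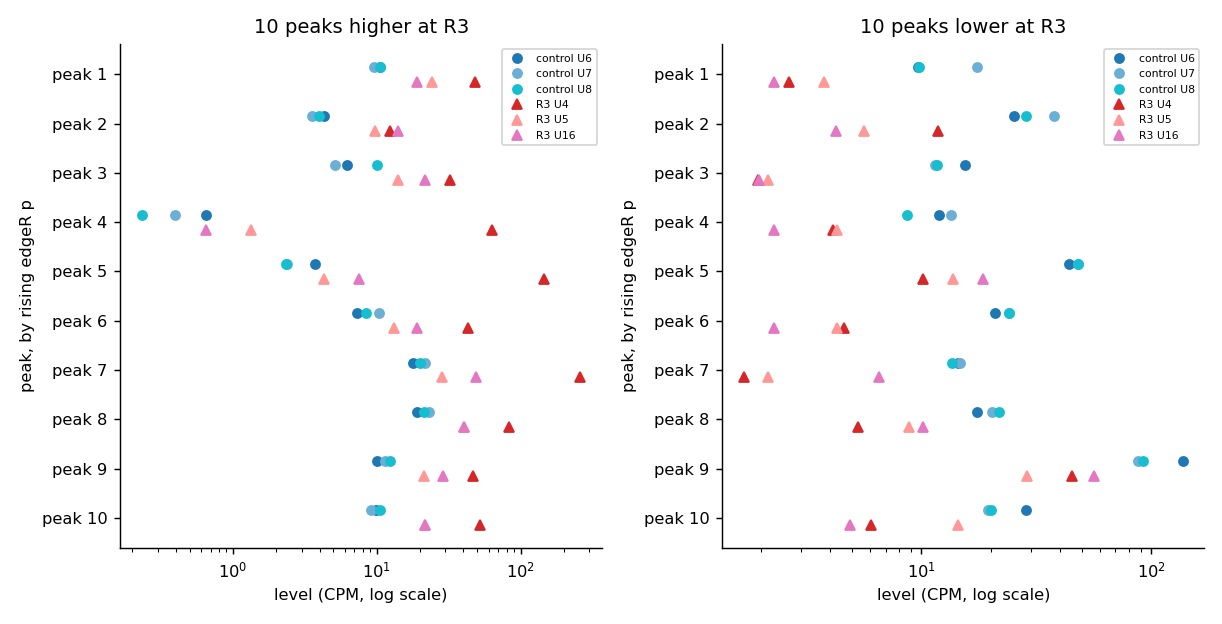
CPM (log axis) of the 10 higher (left) and 10 lower (right) named peaks in each library, with controls as circles and R3 animals as triangles, in order of rising edgeR p. In the left panel U4, in dark red, is the highest R3 library in 9 of the 10 peaks; in the right panel the 3 R3 animals lie below all controls.

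Of the DESeq2 calls over the 21 EDL libraries, all 9 lower and 55 of the 81 higher ones had no overlap between R3 and control, where 2020 of all 9341 tested peaks had none. Calls are picked for a large difference, so their higher share without overlap is partly set by that choice. U4 was the lowest R3 library in 3 of the 9 lower calls. By the naming rule 153 peaks qualified as lower. The first, chr4:14002946-14003254 on the plus strand, had 9.67, 17.4 and 9.80 CPM in controls and 2.66, 3.76 and 2.29 CPM in U4, U5 and U16. The change was -2.04 ± 0.39 on the log2 scale (edgeR adjusted p = 0.176, DESeq2 adjusted p = 0.00567), and -1.97 without U4. The second, chr4:100465147-100465397 on the plus strand, had 25.3, 37.6 and 28.5 CPM in controls and 11.9, 5.63 and 4.25 CPM at R3. Its change was -2.04 ± 0.46 and -2.60 without U4, where DESeq2 still called it (adjusted p = 0.00573). Within this peak the base 100465339 took 47.7% of control tags and 9.64% of the 83 R3 tags, and the strongest R3 base was 100465217. That comparison of bases was not tested.

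Outside the Myh4 window, 4 more lower peaks were named, each without overlap because the rule asked for it. The fourth of the list, chr15:2374512-2374870 on the plus strand, had 11.9, 13.5 and 8.63 CPM in controls and 4.11, 4.29 and 2.29 CPM at R3. For the sixth, chr11:76887998-76888136 on the minus strand, controls had 20.8, 24.2 and 24.0 CPM, and R3 animals 4.60, 4.29 and 2.29 CPM. The seventh, chr2:30750595-30750762 on the minus strand, had 14.4, 14.7 and 13.5 CPM and then 1.69, 2.15 and 6.54 CPM. The tenth, chr20:34683207-34683624 on the minus strand, had 28.5, 19.4 and 20.1 CPM and then 6.05, 14.5 and 4.90 CPM. U4 was neither the lowest nor the highest R3 animal in the tenth, and U16 was the lowest in 3 of these 4. Of the 10 lower peaks, 9 were DESeq2 calls.

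The other 4 lower named peaks, 3 on the plus and 1 on the minus strand, lie in the window of Myh4 on chromosome 10, the gene of the type IIb myosin heavy chain that EDL fibres use. The window was read from a genome view in the study and its edges are approximate; its tested sense peaks run from 53778241 to 53800524 (Rnor_6.0). The promoter of rat Myh4 in RefSeq is shown because all peaks of the gene's window had lower values at R3. It is the 250 bases before the annotated start, chr10:52421898-52422147 of GRCr8, plus strand, a newer build than that of the peaks, and capitals mark motif matches.

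Myh4: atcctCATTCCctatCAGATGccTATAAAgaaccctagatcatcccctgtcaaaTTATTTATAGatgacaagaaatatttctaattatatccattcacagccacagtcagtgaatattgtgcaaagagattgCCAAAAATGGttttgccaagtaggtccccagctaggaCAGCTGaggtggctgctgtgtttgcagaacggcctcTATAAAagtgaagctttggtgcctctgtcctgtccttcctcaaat

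Both strands were searched for the TATA box, here the letters TATAAA, which began at -227 and at -45 from the start, and on the opposite strand at -193, inside the MEF2 consensus match that began at -196. E-boxes, which bind MyoD-family factors and were searched as CANNTG, began at -235 and -81. The CArG box, bound by serum response factor, began at -118, and an MCAT element, searched by the letters CATTCC, at -245. Over the same 250 bases of 33469 rat promoters, 12.9% held the TATA box, 65.5% an E-box, 12.1% the MCAT letters, 2.96% the MEF2 motif and 1.5% the CArG box. These matches are descriptions and were not tested for binding.

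All 35 tested sense peaks of the Myh4 window had lower values at R3, with log2 changes from -1.72 to -0.48 and a median of -1.06. In 31 of them the R3 animals lay below all controls, as in 1058 of all 9341 tested peaks, and 25 had an edgeR unadjusted p under 0.05, as did 472 lower peaks among all tested, but the lowest adjusted p was 0.176. Neighbouring peaks of one window are not independent measurements. Summed, they held 2977, 3439 and 3019 CPM in controls U6, U7 and U8 and 1628, 1480 and 2132 CPM in U4, U5 and U16. The mean was 3145 ± 255 CPM in control and 1747 ± 342 CPM at R3 (SD, n = 3 each), a ratio of 0.556, and the groups did not overlap (two-sided exact permutation test, p = 0.1, the smallest that 3 against 3 can give). Scaled to all tags of a library instead, the ratio was 0.627 and the groups again did not overlap, at 1526, 969 and 1620 against 2624, 1933 and 2002 CPM of all tags.

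Of the sense peaks, 3 are among the 10 named. The peak chr10:53791552-53791655 had 43.7, 48.0 and 48.1 CPM in controls and 10.2, 13.7 and 18.6 CPM in U4, U5 and U16, a log2 change of -1.72 ± 0.45 (edgeR adjusted p = 0.176, DESeq2 adjusted p = 0.0284). In chr10:53781169-53781638, controls had 137, 88.0 and 92.4 CPM and R3 animals 45.2, 29.0 and 56.2 CPM. The peak chr10:53786238-53786363 had 17.4, 20.2 and 21.7 CPM and then 5.32, 8.85 and 10.1 CPM. The peak nearest the 5′ end of the window, chr10:53778241-53778413, had 31.2, 9.51 and 13.5 CPM in controls and 9.19, 8.05 and 9.15 CPM at R3. The most abundant, chr10:53797328-53797599, had 375, 537 and 423 CPM and then 284, 204 and 326 CPM, which did not overlap but had an edgeR unadjusted p of 0.0954.

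On the opposite strand, 10 peaks of the window were tested and all had lower values at R3. Their sum was 103, 117 and 120 CPM in controls and 41.1, 45.9 and 68.3 CPM in U4, U5 and U16 (ratio 0.458, two-sided exact permutation test, p = 0.1). The minus-strand peak chr10:53782925-53783004, the third of the lower list, held 15.4, 11.5 and 11.7 CPM in controls and 1.94, 2.15 and 1.96 CPM at R3, which are 8, 8 and 6 tags. Its log2 change of -2.68 ± 0.64 (edgeR adjusted p = 0.176, DESeq2 adjusted p = 0.0181) was -2.64 without U4. In a fit of the 6 libraries alone it was called by edgeR. The R3 animals lay below all controls in 5 of the 10 antisense peaks, as in 1058 of all 9341.

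**Figure D4:**
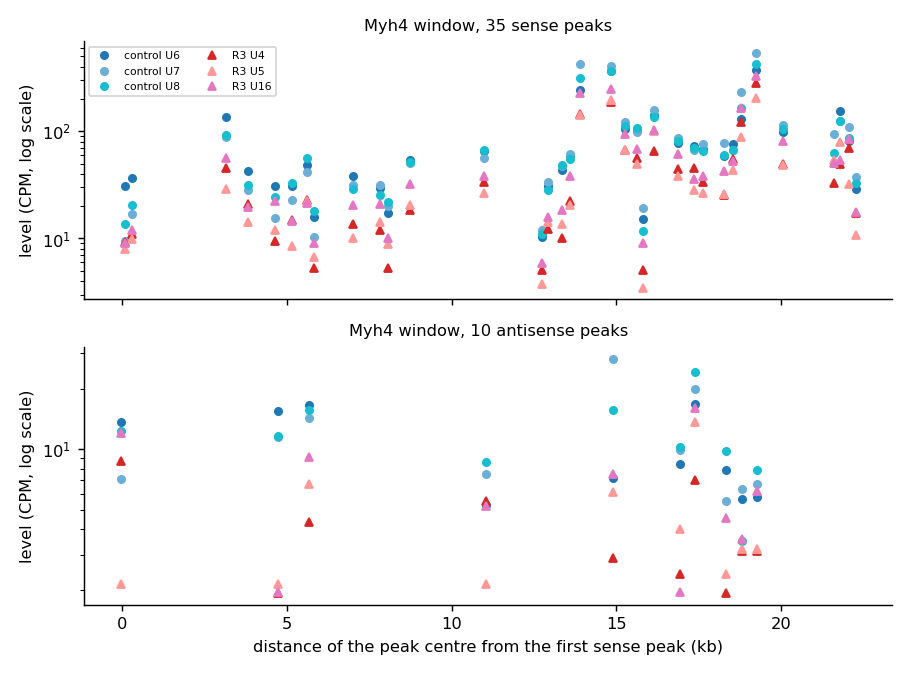
CPM (log axis) of the 35 sense (top) and 10 antisense (bottom) peaks of the Myh4 window against the distance of each peak centre from the first sense peak in kb, with controls as circles and R3 animals as triangles. Over the sense peaks the triangles lie below the circles in 31 of 35 peaks.

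In the other EDL phases the Myh4 sense sum lay between 2261 and 5871 CPM in D1 animals and between 1375 and 1576 CPM in D3 animals. It was 1131 to 1729 CPM in the D7 group, 900.27 to 1691 CPM in the R1 group and 1672 to 3209 CPM in the R7 group. The R3 values, 1480 to 2132 CPM, thus overlapped those of D3, D7, R1 and R7 and lay below all D1 libraries. In soleus the window held 6.91 to 38.7 CPM in controls and 20.9 to 52.4 CPM at R3 on the scaling of all 42 libraries, where EDL had 3209 to 3628 and 1608 to 2323 CPM.

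The window of Rtkn on chromosome 4 held 1 tested peak, chr4:114835675-114836032 on the plus strand. It had 8, 0 and 3 tags in controls and 9, 7 and 8 tags in U4, U5 and U16, that is 0.744, 0 and 0.700 CPM against 2.18, 1.88 and 2.61 CPM. The groups did not overlap, and the edgeR log2 change of 1.93 ± 0.75 had an adjusted p of 0.257.

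The most abundant peaks did not pass the test. The 10 peaks with the highest control means, 15686 to 49320 CPM, had log2 changes from -0.41 to -0.07 and edgeR unadjusted p-values from 0.155 to 0.804. The highest, chr14:46643057-46647705 on the plus strand, had a mean of 49320 ± 6643 CPM in control and 41654 ± 4145 CPM at R3 (SD, n = 3 each). These 10 peaks took 22.9%, 24.9% and 26.2% of peak CPM in U6, U7 and U8 and 17.7%, 22.6% and 21% in U4, U5 and U16. Among them, chr1:11967774-11968923 on the plus strand and chr1:11907762-11908914 on the minus strand held nearly the same tags in every library (181440 and 180648 in U6, 67826 and 67929 in U4), so their values may share reads and are uncertain. The mean of chr6:30628568-30629645 on the plus strand lay close below that of chr1:11967774-11968923 in every phase. It was 17330 beside 18220 CPM in control and 15410 beside 16070 CPM at R3. Whether these peaks share reads was not tested, so the shares of the 10 peaks are uncertain too.

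The levels of the named peaks in the other phases are given as a description, since the controls they are read against also chose the peaks, and since no EDL library of another phase was in lane 1 with the controls. Over the 10 higher named peaks, a median of 13 of the 15 EDL libraries of other phases lay above all controls. Over the 10 lower ones a median of 14 lay below all controls. Over all tested peaks, which were not chosen by their controls, the medians were 4 above and 4 below, so they are not a like baseline. At the named peaks most libraries of other phases lay beyond the controls as well, and not those of R3 alone. The first lower peak, chr4:14002946-14003254, had means on both sides of control across phases. Its means were 12.3 CPM in control, 3.91 in D1, 3.02 in D3 and 8.47 CPM in D7 animals, then 20.3 CPM after 1 day of recovery, 2.90 CPM in R3 and 7.08 CPM in R7 animals. The peak chr11:76887998-76888136 was at 23.0 CPM in control and between 2.53 and 5.81 CPM in the means of all other phases. The chr3:12009489-12009652 peak had means of 10.2 CPM in control, 14.9 to 24.0 in unloading, 20.1 at R1, 30.4 at R3 and 16.3 CPM at R7.

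**Figure D5:**
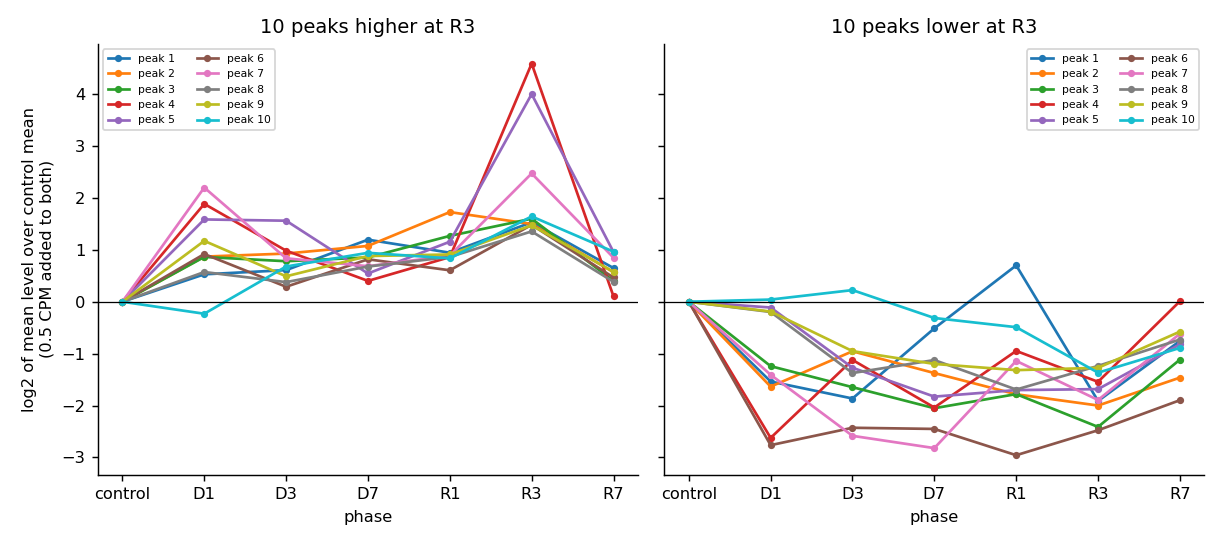
Log2 ratio of the mean level in each EDL phase to the control mean (0.5 CPM added to both) for the 10 higher (left) and 10 lower (right) named peaks, numbered by rising edgeR p. The lower peak 1 lies above 0 at R1, and the 3 highest points at R3 in the left panel are chromosome 17 peaks in which U4 is the highest library. Peaks were chosen by their R3 and control values, so the distance of other phases from 0 is partly set by that choice.

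R3 was compared with D7 to ask how the muscle differed from its last day of unloading. EdgeR called 18 peaks (0.193% of 9341), 7 higher at R3 and 11 lower, and DESeq2 called 110 (1.18%), among them those 18. In each of the 18 the R3 and D7 animals did not overlap, as was so for 1321 of all tested peaks. The calls were picked for their difference, so this is partly set by that choice. The peak chr1:261281619-261281935 on the plus strand had 199, 243 and 127 CPM at D7, 26.1, 20.9 and 26.1 CPM in U4, U5 and U16, and 21.5, 14.7 and 8.63 CPM in controls. Its R3 minus D7 log2 change was -2.95 ± 0.42 (edgeR adjusted p = 0.00512). The peak chr10:65035819-65035995 on the minus strand had 22.7, 19.7 and 21.6 CPM at D7, 3.63, 4.83 and 3.27 CPM at R3, and 6.23, 5.94 and 3.73 CPM in controls. In chr5:159967736-159968618 on the plus strand, D7 animals had 345, 368 and 413 CPM, R3 animals 74.8, 113 and 77.8, and controls 85.5, 38.0 and 67.0 CPM.

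Among peaks that were higher at R3 than at D7, chr2:164549341-164549524 on the plus strand had 43.3, 43.9 and 29.7 CPM at D7, 155, 107 and 143 CPM in U4, U5 and U16, and 148, 150 and 149 CPM in controls. The R3 minus D7 change was 1.80 ± 0.30 on the log2 scale (edgeR adjusted p = 0.0137). The peak chr9:82570954-82571121 on the minus strand had 2.66, 4.03 and 2.19 CPM at D7 and 10.4, 15.6 and 21.9 CPM at R3, above its controls at 7.44, 4.36 and 6.30 CPM. For chr10:104253192-104253536 on the minus strand, D7 animals had 5.44, 3.63 and 2.43 CPM, R3 animals 14.3, 11.3 and 11.4, and controls 12.8, 10.3 and 9.10 CPM. Over the 18 peaks the median size of the R3 minus control log2 change was 0.39, near the 0.35 of all tested peaks, and 4 had an edgeR unadjusted p under 0.05 against control, where 14.1% of all tested peaks did. Both comparisons use the same R3 libraries.

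The number of calls, 18 in the main fit, varied with the animals and the fit. Without R3 animal U16 edgeR called 0 (779 at an unadjusted p under 0.05, smallest adjusted p 0.0564), without U5 53 and without U4 7. Leaving out D7 animals gave 6 (U1), 22 (U2) and 4 (U3). With lane as a term over 42 libraries edgeR called 0, and 33 without that term, at median standard errors of 0.510 and 0.384.

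Against R1, the other early day of recovery, edgeR called 1 peak (0.0107%) and DESeq2 22 (0.236%). The edgeR call is chr4:14002946-14003254, at 16.1, 20.4 and 24.4 CPM in R1 animals U18, U20 and U21 and at 2.66, 3.76 and 2.29 CPM in U4, U5 and U16. Its R3 minus R1 change was -2.79 ± 0.39 (edgeR adjusted p = 0.00765). EdgeR called 0 peaks without U21, U16 or U4, with smallest adjusted p-values of 0.0702, 0.142 and 0.0717 and with 386, 529 and 380 peaks at an unadjusted p under 0.05. It called 2 without U18 and 15 without U5. Of the peaks named but not called by edgeR, chr5:148528613-148529082 on the plus strand had 550, 1070 and 1385 CPM at R1, 386, 148 and 211 CPM at R3 and 331, 411 and 223 CPM in controls (edgeR adjusted p = 0.131). DESeq2 called it (adjusted p = 0.000554).

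Against R7, edgeR called 2 peaks (0.0214%), both higher at R3, and DESeq2 11 (0.118%). The peak chr13:104660482-104660627 on the plus strand had 3.33, 3.41 and 3.12 CPM in R7 animals U12, U13 and U19, 21.3, 10.7 and 15.04 CPM in U4, U5 and U16, and 7.72, 7.93 and 9.10 CPM in controls, a change of 2.26 ± 0.33 (edgeR adjusted p = 0.0152). The peak chr13:108590444-108590656 on the minus strand had 4.58, 2.39 and 3.51 CPM at R7, 53.0, 103 and 35.3 CPM at R3, and 79.6, 38.0 and 84.2 CPM in controls. EdgeR called 0 peaks without U4, U12 or U13 (274, 842 and 304 at an unadjusted p under 0.05), 1 without U19, and 3 without U5 or U16.

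Whether the change at R3 differed between the muscles was tested as an interaction over 42 libraries. EdgeR called 0 of 9944 peaks (0%) and DESeq2 0, with 339 peaks (3.41%) at an unadjusted p under 0.05 by edgeR and 346 by DESeq2. With both muscles of a rat joined as a block, edgeR again called 0, with 415 at an unadjusted p under 0.05. The 10 higher named peaks had log2 changes of 1.41 to 5.50 in EDL and 0.81 to 3.57 in soleus in the fit without the block, and 0 of them had an unadjusted p under 0.05 for the difference. Of the 10 lower named peaks, 6 were also lower at R3 in soleus and 4 were higher there, and 3 had an unadjusted p under 0.05 for the difference. Both chromosome 4 peaks, chr4:14002946-14003254 and chr4:100465147-100465397, had -2.01 and -2.02 in EDL and -2.59 each in soleus. In the Myh4 window, chr10:53782925-53783004 had -2.65 in EDL and 2.33 in soleus (unadjusted p = 0.0037, edgeR), and chr10:53791552-53791655 had -1.70 and 2.22 (unadjusted p = 0.0148). For chr11:76887998-76888136 the changes were -2.58 and 0.22 (unadjusted p = 0.0286), and for chr10:53781169-53781638 they were -1.26 and 0.16. On the scaling of all 42 libraries, soleus levels of the first of these were at most 0.0730 CPM in controls and 0.437 CPM at R3, and all 4 stayed at or below 2.25 CPM in these 6 soleus libraries. The adjusted p of the difference between muscles was 1 for all 20 named peaks by edgeR. The smallest unadjusted p of the interaction was at chr7:98062772-98063715 on the minus strand. On the scaling of all 42 libraries it had 5.05, 2.93 and 2.48 CPM in EDL controls and 5.79, 15.2 and 9.26 CPM in EDL of U4, U5 and U16, and 10.5, 13.4 and 9.35 CPM in soleus controls and 5.42, 2.81 and 6.33 CPM in soleus at R3. The interaction was 2.66 ± 0.63 on the log2 scale (edgeR adjusted p = 0.699).

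Shifts between neighbouring starts were tested within 523 groups of peaks on one strand with gaps of at most 1000 bases. Of 1571 peaks, 0 (0%) were called for a change of use relative to the other peaks of their group (edgeR diffSpliceDGE), with 13 at an unadjusted p under 0.05 and a smallest adjusted p of 0.67. The peak chr4:14002946-14003254 was second in that list, with a log2 change relative to its group of -1.15. The 13 peaks are fewer than an unadjusted 0.05 gives where nothing changes, so the 0 calls do not show that use was unchanged.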

How the data were processed

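CAGE (nAnT-iCAGE) tags of rat EDL and soleus were analysed from the deposited peak table and position tables. Per the labels, the authors' processing names Trimmomatic 0.38, BWA and HISAT2 on Rnor_6.0, and the study's methods name STAR as the aligner. The deposited counts are whole tags per TSS peak or per base. The authors also deposited CPM values, scaled per library, used only to check that each of the 9971 peaks reaches 10 CPM somewhere. No sample column was without a map (0).

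Peaks on MT were left out. Counts of the 21 EDL libraries were fitted together (edgeR 4.0.16: filterByExpr, TMM, quasi-likelihood test, phase only, Benjamini-Hochberg), with a call where the adjusted p was below 0.05 and groups differed by more than 2.38-fold, with DESeq2 1.42.0 beside it. R 4.3.3 and Python 3.11.15 were used, and the scripts were tested on simulated data. CPM in the text are edgeR's, TMM-scaled to the tags in peaks. The interaction with soleus used 42 libraries. Errors after ± are SE for log2 changes. The median biological coefficient of variation was 0.304. Replicates are different rats. Muscles of one rat share a number: their deviations correlated at -0.307 to 0.561 (median 0.251, above 0.1 in 15 of 21 rats).

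Named peaks were, per direction, the 10 of smallest edgeR p with no overlap, a difference above 2.38-fold and a mean of at least 10 CPM, with up to 10 DESeq2 calls a direction by p, the Myh4 and Rtkn windows, the 10 highest control peaks, and up to 3 a direction for other comparisons. Members and lists were chosen with earlier results of these data known. Peaks were not matched to genes of Rnor_6.0 and carry positions only, and the planned gene lists and cell type markers were not used. The promoter is from RefSeq (GRCr8). Alternatives were other scalings, filters, thinning, fewer or more libraries, a lane term and leaving out animals.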

Additional observations from a re-analysis of the deposited data

How the results depend on the processing

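For R3 against control, edgeR called 0 peaks under other size factors, tag totals, other filters, thinning, MT kept and the lane term. It called 2 in a fit of the 2 groups alone and 4 over 42 libraries, and DESeq2 called 90, or 184 on 6 libraries (78 higher and 106 lower), of which 44 were among the 90. Leaving out 1 library gave 0 to 90 calls with edgeR and 2, 4, 5, 17, 170 or 352 with DESeq2, the latter chosen after the data were seen, like the lane fits of other phases. For R3 against D7 the 18 calls became 110 with DESeq2, 11 with tag totals, 9 when thinned, 3 in 2 groups, 33 over 42 libraries, 0 with lane, and 0 to 53 when 1 library was left out. For R3 against R1 the 1 call became 22 with DESeq2, 0 when thinned, 3 over 42 libraries, 0 with lane, and 0 to 15 without 1 library. For R3 against R7 the 2 calls became 11 with DESeq2, 0 with tag totals, when thinned and in 2 groups, and 0 to 3 without 1 library.

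The interaction and start-usage tests called 0 under each alternative run. The animal as a replicate block gave 0 calls for the interaction. Of 39 named peaks under 882 alternatives in all, 743 gave the main verdict, 134 passed the threshold that edgeR's main test did not, and 5 turned direction. The abundant peak 1:198655606-198655966(+) had log2 changes of 0.0787 with tag totals, 0.00526 (DESeq2 without control U8), and 0.00104 (edgeR) and 0.00888 (DESeq2) without R3 U4, against -0.17 without U16; 6:30628568-30629645(+) had 0.00315 with tag totals. The Myh4 sense sum kept its direction throughout. Depth of 4025533 tags in the shallowest R3 library limits peaks near 1 CPM, where 1 CPM is a few tags. The causes were not tested.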
